A study of Mus musculus with 3 samples.

Results

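Starvation of a macrophage-like cell line in a salt solution was compared with culture in full medium at the level of RNA. J774A.1 is an established mouse line with macrophage properties, derived from a tumour of a BALB/c mouse. For 6 h the cells were left in serum-containing RPMI (10% fetal bovine serum) or moved to Earle's Balanced Salt Solution (EBSS), to which SB202190 at 10 µM, a p38 kinase inhibitor, was added in the remaining group. Group names follow the source names, since the wording of the design could also mean that RPMI was the base of all media. A loop of 3 arrays in Cy5 and Cy3 held the RNA, and each condition was 1 sample read once in either dye. As the labels name no replicate cultures, EBSS and RPMI were compared without a test, and no p-value is given. EBSS as such holds glucose and salts but no amino acids or vitamins, so that the parts of amino acids, of other ingredients of RPMI and of serum in a difference cannot be told apart. Whether the EBSS cells received serum or solvent, and the number of cultures, are not given in the sources used here.

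A gene was taken as measured when its brightest probe was well above background in both channels of EBSS or in both channels of RPMI. That held for 11871 of the 27566 genes on the array, with 10979 measured in both conditions, 631 in RPMI alone and 261 in EBSS alone. Each gene has a log2 ratio of EBSS over RPMI taken over the whole loop, and 2 partly independent readings of it, called paths. The direct path is the array with EBSS and RPMI together, and the indirect path runs through the other 2 arrays and the inhibitor condition. Counted genes, called higher or lower, have a log2 ratio of at least 1 in size and paths of 1 sign that each reach 0.5. The error given after a log2 ratio is a technical SE, taken from how well ratios around the loop sum to 0 for probes of like brightness. It leaves out the spread between cultures. As whole cultures were read, fewer cells with a transcript and less of it per cell cannot be told apart.

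All 12 macrophage markers, among them Csf1r, Spi1, Adgre1 and Cd68, were well above background in all 4 channels of EBSS and RPMI. Their log2 ratios ran from -0.91 to 0.41, and none was counted. Of 27 markers of fibroblasts, epithelium, endothelium, lymphocytes, neutrophils, erythroid cells and muscle on the array, 4 were measured (Pdgfra, S100a8, Hba-a1 and Myh1), with log2 ratios from -0.38 to 0.20. Between 40.1% and 49.9% of the spots of a channel were well above background. Across measured genes the direct and indirect paths correlated at a Pearson r of 0.875, which describes these arrays, as genes are not independent replicates. The sum around the loop had a robust SD that gave technical SEs from 0.0634 to 0.249, with a median of 0.118, a precision set by having only 3 arrays.

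Cells short of amino acids are known to carry uncharged transfer RNAs, which activate the kinase GCN2. GCN2 phosphorylates the initiation factor eIF2, and the transcription factor ATF4 is then made and binds C/EBP-ATF elements in promoters of stress and amino acid genes. In parallel the kinase complex mTORC1 leaves the lysosome and loses activity, which frees TFEB and TFE3 to act on lysosome and autophagy genes through E-box elements named CLEAR. Loss of serum growth factors lowers ERK and AKT signalling, with less D cyclin and more active FOXO factors. Macrophages lean on the same lysosomal system to degrade what they engulf.

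The promoters shown here belong to genes that were higher in EBSS and that hold 1 of these elements. Each is a window of 100 bases that ends before the transcript's start, read in the direction of the gene, from RefSeq's annotation of GRCm38.p6. Capitals mark the C/EBP-ATF element, searched as TTGCNTCA on both strands, in Nupr1 (chr7:126625527-126625626, minus strand), Atf3 (chr1:191183390-191183489, minus strand), Got1 (chr19:43524654-43524753, minus strand) and Herpud1 (chr8:94386271-94386370, plus strand). In Atp6v1a (chr16:44139338-44139437, minus strand) and Gla (chrX:134601147-134601246, minus strand) they mark a CLEAR-like element, TCACGTGA. In Bbc3 (chr7:16310047-16310146, plus strand) and Txnip (chr3:96557790-96557889, plus strand) they mark a FOXO element, TTGTTTAC or its reverse complement.
Nupr1: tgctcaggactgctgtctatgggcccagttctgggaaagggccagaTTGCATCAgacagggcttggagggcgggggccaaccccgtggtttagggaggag
Atf3: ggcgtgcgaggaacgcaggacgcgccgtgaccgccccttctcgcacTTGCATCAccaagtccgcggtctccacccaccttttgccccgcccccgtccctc
Got1: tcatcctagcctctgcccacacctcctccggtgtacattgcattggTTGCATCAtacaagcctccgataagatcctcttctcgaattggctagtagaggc
Herpud1: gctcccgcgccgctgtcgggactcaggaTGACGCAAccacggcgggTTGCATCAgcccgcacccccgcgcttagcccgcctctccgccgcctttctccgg
Atp6v1a: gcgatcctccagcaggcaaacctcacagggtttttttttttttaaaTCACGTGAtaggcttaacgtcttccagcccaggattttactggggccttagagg
Gla: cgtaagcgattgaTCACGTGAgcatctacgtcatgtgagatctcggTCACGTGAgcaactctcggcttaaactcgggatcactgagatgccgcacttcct
Bbc3: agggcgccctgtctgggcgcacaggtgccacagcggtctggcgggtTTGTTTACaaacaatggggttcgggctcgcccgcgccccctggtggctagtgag
Txnip: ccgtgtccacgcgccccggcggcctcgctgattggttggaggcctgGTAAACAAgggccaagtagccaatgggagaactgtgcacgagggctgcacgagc
Herpud1 and Gla hold 2 matches each. The nearest match begins 110 bases before the start in Nupr1 and Atf3, 102 in Got1, 112 in Herpud1, 132 in Atp6v1a, 195 in Gla, 168 in Bbc3 and 121 in Txnip. A match describes these letters and not a bound site.

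Among measured genes 532 (4.48%) were higher in EBSS and 335 (2.82%) were lower. The median log2 ratio was 1.36 among the higher and -1.24 among the lower genes. A size of at least 2 was reached by 74 higher and 23 lower genes, and a size of at least 3 by 7 and 6. The genes nearest the limit had log2 ratios of 1.00 just inside and 0.9995 just outside on the high side, and sizes of 1.002 and 0.9999 on the low side. The 4 highest genes with a gene symbol were Ndrg1, Ddit3, Casp4 and Trib3, and the 4 lowest P2ry6, Dusp6, Id1 and Arl4c. The highest thus hold a stress and hypoxia gene, a stress transcription factor, an inflammatory caspase and a pseudokinase. The lowest hold a nucleotide receptor, an ERK phosphatase, an inhibitor of differentiation factors and a small GTPase.

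**Figure D1:**
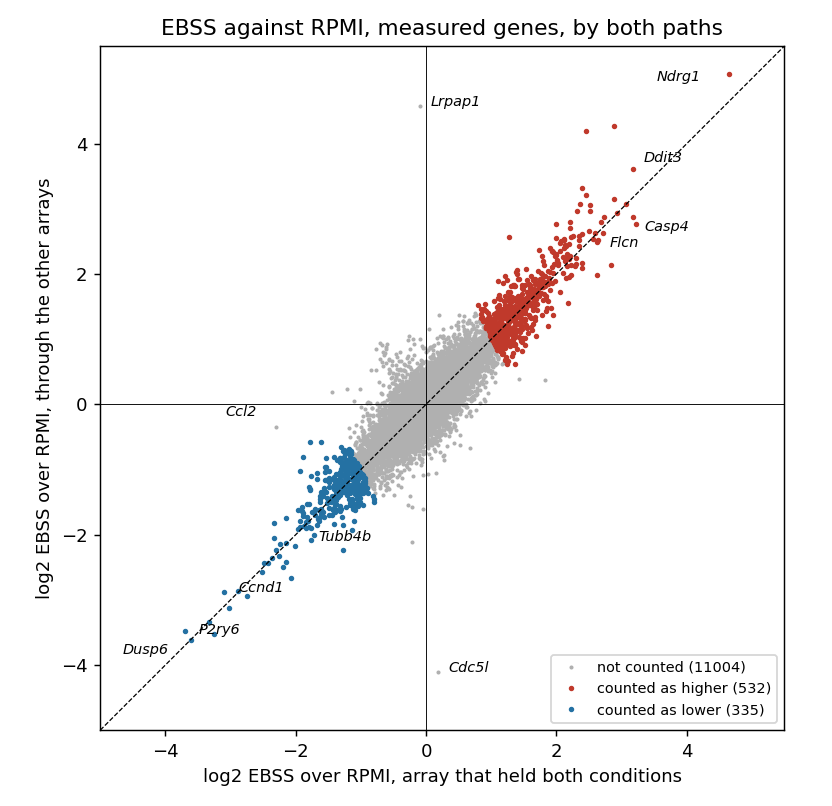
Log2 ratio of EBSS over RPMI for 11871 measured genes, by the array with both conditions (x axis) and through the other 2 arrays (y axis). Points of the 532 higher (red) and 335 lower (blue) genes lie along the dashed line of equal values, while Lrpap1, Cdc5l and Ccl2 lie off it.

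Ndrg1 read 10.97 and 10.61 in the Cy5 and Cy3 channels of RPMI and 15.53 and 15.62 in those of EBSS, in log2 normalised intensity of its probe. Its log2 ratio was 4.79 ± 0.15 (technical SE), or 27.7-fold, with paths of 4.65 and 5.07. Ndrg1 is induced by hypoxia, metal chelation and other stresses in many cells. Ddit3, which encodes CHOP, read 10.58 and 10.02 in RPMI and 13.36 and 13.75 in EBSS, a log2 ratio of 3.32 ± 0.12 (9.97-fold). P2ry6, a receptor for extracellular UDP, read 13.51 and 13.93 in RPMI and 9.62 and 9.80 in EBSS, a log2 ratio of -3.63 ± 0.13 (12.3-fold lower). In all 3 genes both EBSS channels lay on one side of both RPMI channels, which is no separate support, as they were picked for large ratios.

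**Figure D2:**
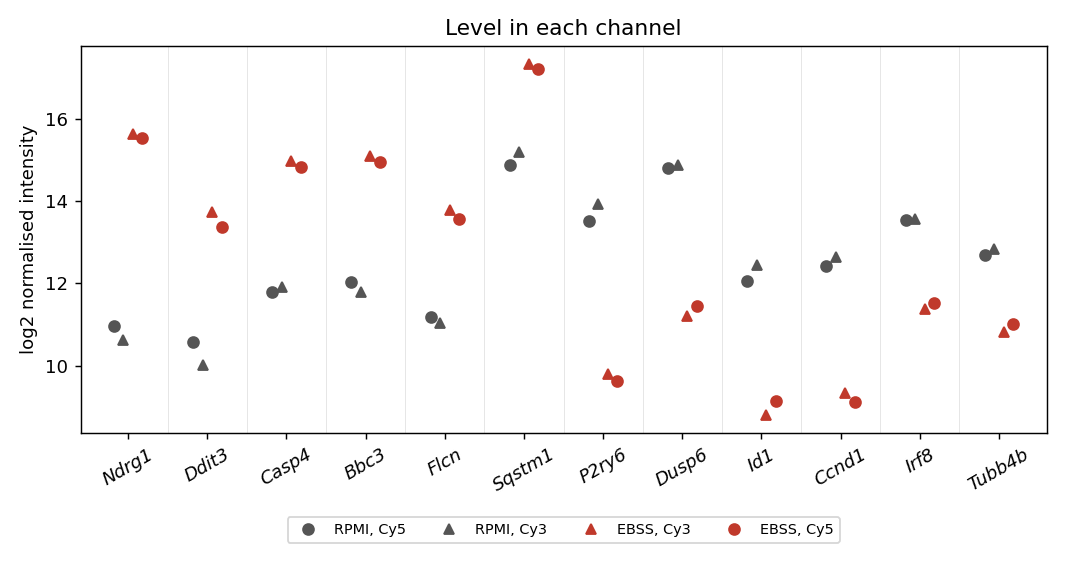
Log2 normalised intensity of 12 probes in each channel of RPMI (grey) and EBSS (red), with circles for Cy5 and triangles for Cy3. For each gene both channels of EBSS lie on the same side of both channels of RPMI, as is likely for genes counted by both paths. Levels can be compared only within a gene.

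The gene lists were written with earlier results of these data known, so that a high share of counted members may come in part from that choice. Over all measured genes the shares were 4.48% higher and 2.82% lower. Of 24 measured kinases, phosphatase subunits and factors of the integrated stress response, 9 were higher and 2 lower, with a median of 0.37 beside 0.00 over all measured genes. The factors Ddit3, Atf3 (2.18), Atf5 (1.99), Cebpg (1.89, with 1.12 for its other probe) and Atf4 (1.64) were higher, together with the stress cofactor Nupr1 (2.72). Atf4 read 12.76 and 12.96 in RPMI and 14.38 and 14.63 in EBSS, so that the gene of the factor that is mainly controlled by translation also had more RNA. Trib3, a pseudokinase that binds ATF4 and AKT, read 12.98 and 13.03 in RPMI and 15.86 and 16.21 in EBSS (3.08 ± 0.15, with 2.66 for its other probe). Ppp1r15a, the phosphatase subunit that reverses the phosphorylation of eIF2, was higher by 2.78. Trib1, a relative of Trib3 that directs C/EBP alpha to degradation, was lower at -2.06, with 10.78 and 10.91 in RPMI against 8.79 and 8.77 in EBSS. Eif2b4, a subunit of the exchange factor that phosphorylated eIF2 blocks, was lower at -1.31, with -0.44 for its other probe.

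With loess, enzymes of amino acid synthesis moved less as a group than the stress response list. With arrays centred on all spots the medians of the synthesis and stress response lists were 1.43 and 1.37. Centred on bright probes they were 0.59 and 0.54, so that this order depends on the scaling. Of 21 measured genes of serine, one-carbon, asparagine and proline synthesis, 4 were higher and 1 lower, with a median of 0.12. The transaminase genes Got1 (1.80) and Gpt2 (1.32), the cysteine-forming lyase Cth (1.79) and the mitochondrial folate enzyme Mthfd2 (1.00) were higher. The 1 lower gene was the purine enzyme Gart at -1.07, or 0.05 when arrays were centred on the median of all spots. Psat1 and Shmt2, of the serine and glycine branch, had log2 ratios of 0.46 and 0.12. Chac1, which degrades glutathione and has a C/EBP-ATF element in its promoter, was higher by 1.74, and this gene was picked after its value was seen.

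Among genes of amino acid sensing on the lysosome, the folliculin branch and Sesn2 had large ratios. Folliculin and its FNIP partners switch RagC into the form that recruits TFEB and TFE3 to mTORC1. Flcn read 11.19 and 11.03 in RPMI and 13.55 and 13.78 in EBSS, a log2 ratio of 2.60 ± 0.12 (6.08-fold). Fnip1 (2.67, with 0.22 to 2.56 for 3 other probes), Fnip2 (2.41) and Rragc (1.73, with 1.81 for its other probe) were higher with it. Tfeb, Tfe3 and Mitf, the factors themselves, were measured at -0.13, 0.01 and -0.02. Brakes of mTORC1 were higher as well, namely the leucine sensor gene Sesn2 (2.60, with 1.92 for its other probe), Ddit4 (1.76), Akt1s1 (1.26) and Tsc1 (1.02). Lamtor3 (1.62) and Rheb (1.03), which like Rragc serve its activation, were also higher. Sesn1, the p53-controlled relative of Sesn2, was lower at -1.28, with -0.48 and -0.15 for its other probes. Over the list 10 of 38 genes were higher and 1 lower, with a median of 0.12, while Mtor lay at -0.34 and Rptor, another core subunit, was not counted. In mm8, the build of the files, the Flcn probe spans 59608350 to 59608409 of chromosome 11, and whether probes lie in exons was not analysed here.

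Carriers that bring amino acids into the cytosol, a list also written with earlier results known, were counted as higher more often than measured genes at large. Of 27 measured carriers 9 were higher and none lower, with a median of 0.64 that ranged from 0.64 to 1.49 over the scalings tried and was 0.17 with no filter on dim probes. Slc38a2, the carrier of small neutral amino acids that adapts to starvation, read 14.41 and 14.40 in RPMI and 16.02 and 16.56 in EBSS (2.08 ± 0.25), but its 3 other probes ranged from -0.10 to 1.29. The glycine carrier Slc6a9 (1.97), the neutral carrier Slc1a4 (1.5), the creatine carrier Slc6a8 (1.37), and the heavy chain Slc3a2 (1.34) with its cystine partner Slc7a11 (1.20) were higher. So were carriers that export amino acids from lysosomes, Ctns for cystine (1.83) and Slc15a4 for histidine and peptides (1.32). Slc16a10, which passes aromatic amino acids, lay at 1.17.

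Genes that charge transfer RNAs differed between the cytosol and mitochondria. In the cytosolic list of synthetases and their scaffold proteins 6 of 23 genes were higher and none lower, with a median of 0.38. These were Aars (1.25), Rars (1.22), Nars (1.19), Cars (1.08), Iars (1.05) and Eprs (1.05). Mitochondrial synthetases had 0 of 16 higher and 0 lower, with a median of -0.22, from Rars2 at -0.98 to Lars2 at 0.59. The same order of the medians was found in all 6 other scalings, for example 1.77 against 0.50 when arrays were centred on all spots. That difference was not tested.

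Autophagy genes were higher at the start of the pathway and less so at the lipid conjugation step. Among the ULK complex, the lipid kinase complex and their partners 9 of 22 were higher and none lower (median 0.64), against 2 of 16 for the conjugation enzymes and ATG8 proteins (median 0.13), a difference that was not tested. The ULK complex gave Rb1cc1 (2.06, with 0.28 to 1.66 for 4 other probes), Atg13 (1.60) and Ulk1 (1.38, with 1.06 for its other probe). Atg2a (1.45), Wipi2 (1.38), Atg14 (1.32), Uvrag (1.27), Wdr45 (1.04) and Wdr45b (1.03), which shape the early membrane, made up the rest. Atg12 (2.25, with 0.99 and 1.05 for its other probes) and Gabarapl1 (1.92, with 1.22) were the 2 of the conjugation list, in which Atg5, Atg7 and Atg3 lay between 0.11 and 0.15. Map1lc3b, which encodes the protein used most to follow autophagy, lay at 0.74, with 1.25 for its other probe.

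Receptors that tie cargo to the autophagosome were higher in 4 of 15 cases, with a median of 0.57. Sqstm1, which encodes p62, was among the brightest probes, with 14.88 and 15.19 in RPMI and 17.22 and 17.34 in EBSS (2.71 ± 0.25). Nbr1 (1.73, with 1.26 and 1.48 for its other probes), Tollip (1.21) and the kinase gene Tbk1 (1.11), which activates such receptors, followed. None of the 15 was lower.

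**Figure D3:**
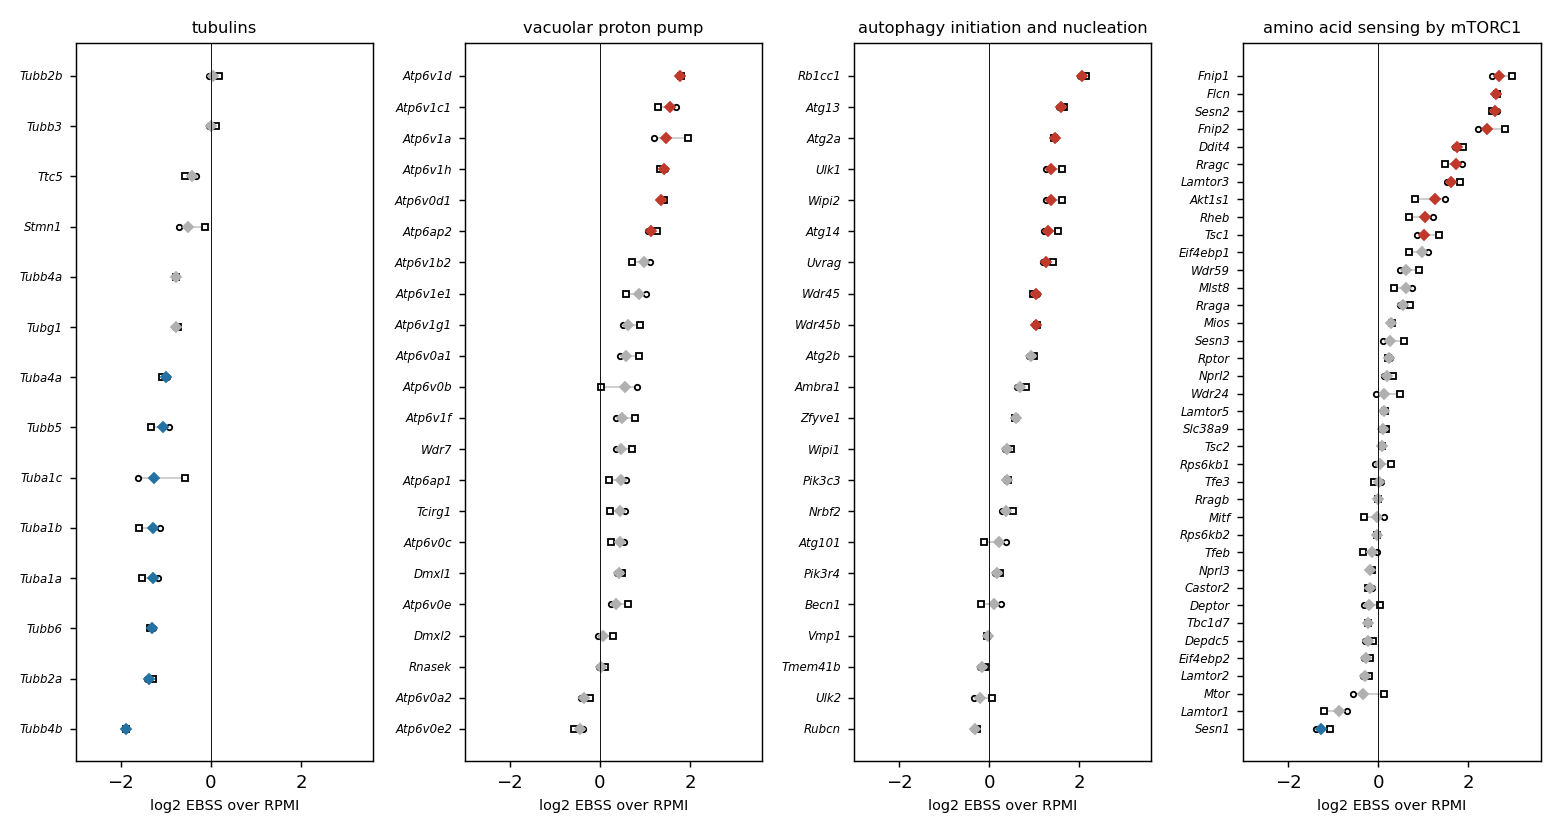
Log2 ratio of EBSS over RPMI for every measured member of 4 gene lists, with diamonds for the loop estimate (red higher, blue lower, grey not counted), circles for the direct path and squares for the indirect path. Counted tubulins lie to the left of 0, and 20 of 22 proton pump genes lie to the right of it.

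The vacuolar proton pump, which acidifies lysosomes and carries the amino acid sensing machinery, had more counted genes than the lysosomal enzymes. Of its 22 measured subunits and assembly factors 6 were higher and none lower, and 20 had a ratio above 0 (median 0.53). The soluble V1 sector held 4 of them, Atp6v1d (1.77), Atp6v1c1 (1.55), Atp6v1a (1.46, with 1.42 for its other probe) and Atp6v1h (1.41). Atp6v1d read 12.45 and 12.34 in RPMI and 14.20 and 14.20 in EBSS. The membrane sector gave Atp6v0d1 (1.36), and the accessory subunit Atp6ap2 lay at 1.13. Among 46 lysosomal hydrolases and membrane proteins only Gla, the alpha-galactosidase gene, was counted (1.48, with 1.25 for its other probe), at a median of 0.23 with 37 of 46 ratios above 0. In the list of Rab GTPases and their effectors 6 of 32 were higher and none lower. Rab11fip1 (2.25) and Rab22a (1.21, with -0.13 to 0.60 for other probes) serve recycling, Rab5a (1.03) early endosomes, Rab9 (1.51) return to the Golgi, Rab1a (1.47) early secretion, and Plekhm1 (1.56) fusion with lysosomes.

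Targets of FOXO factors and other nutrient withdrawal genes were higher in 9 of 27 cases and lower in none (median 0.37). Hbp1, a repressor of the cell cycle, read 11.56 and 11.31 in RPMI and 14.39 and 14.44 in EBSS (2.97 ± 0.15, with 1.35 for its other probe). Ccng2 (2.38), Txnip (1.95, with 1.31), Zfand5 (1.92), Ypel5 (1.69), Tsc22d3 (1.67), Btg1 (1.57), Kdm3a (1.29) and the ubiquitin ligase gene Fbxo32 (1.21) were the others. Clock genes were higher in 6 of 15 cases (40%, beside 4.48% of all measured genes) and lower in none. Their median of 0.49 was 0.24 with no filter on dim probes and 1.46 with the scanner software's log ratios. Nfil3 (2.26, with 2.11 for its other probe), Rora (2.04, with 1.83), Nr1d2 (1.94), Bhlhe40 (1.30), Arntl (1.28) and Per1 (1.05) hold both activators and repressors of the cycle. Of 11 genes of the MYC network the repressors Mnt (1.51) and Mxd1 (1.08, with 0.28 for its other probe) were higher, and Myc itself lay at -0.50.

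Feedback genes of ERK signalling gave some of the lowest ratios without a shift of the list. Of 29 measured genes 4 were lower and 2 higher, at a median of -0.04. Dusp6, which dephosphorylates ERK, read 14.80 and 14.87 in RPMI and 11.44 and 11.20 in EBSS (-3.61 ± 0.14, 12.2-fold lower). Elk3, an ETS factor, lay at -2.87 with -2.24 for its other probe, and Phlda1 (-1.53) and Dusp7 (-1.18) were lower. Against these, the feedback gene Spry2 (1.01, with 0.03 for its other probe) and the ETS factor gene Etv1 (1.33) were higher. Immediate early genes also lay on both sides, with 5 of 29 higher and 3 lower. Fos (-2.27), Dusp2 (-1.68) and Arc (-1.23) were lower, and Plk2 (2.25), Maff (2.21), Dusp1 (1.69), Btg1 and Mafk (1.36) were higher. Fos read 11.05 and 11.08 in RPMI and 9.23 and 8.98 in EBSS. Kruppel-like factors held Klf4 (2.20), Klf9 (1.79) and Klf6 (1.35) on the high side and Klf10 (-1.50), a target of TGF-beta, on the low side among 14.

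ID proteins, which bind and block basic helix-loop-helix factors, were low together. Id1 read 12.05 and 12.44 in RPMI and 9.15 and 8.80 in EBSS (-3.34 ± 0.12, 10.1-fold lower, with -3.13 for its other probe). Id3 (-2.28) and Id2 (-1.38, with -1.07) were lower with it, and so were Smad6 (-1.46), an inhibitor of BMP signalling, and Skil (-2.24, with -0.20 for its other probe). Id1, Id3 and Smad6 are classic targets of BMP signals. The list had 5 of 28 lower, 1 higher (Tgif1, 1.47) and a median of -0.29.

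With loess, genes of the cell cycle were lower as lists by a small amount. Of 32 measured G1 cyclins, inhibitors and E2F factors 4 were lower and 2 higher, with a largest log2 ratio of 2.97. Of 49 DNA replication genes 3 were lower, and of 42 mitosis genes 4, with none higher in either list. In all of these lists the share of lower genes was above the 2.82% of all measured genes. G1 cyclins, inhibitors and E2F factors had a median of -0.32, DNA replication genes -0.40 and mitosis genes -0.45, against 0.00 over all measured genes. When arrays were centred on all spots these medians were 0.71, 0.78 and 0.58, beside 0.81 for all measured genes. Centred on bright probes they were -0.13, -0.05 and -0.25, beside -0.02. The replication list thus lay near the median of all measured genes with either centring. With loess, 7 of 49 replication genes and 3 of 42 mitosis genes had a ratio above 0. Ccnd1, for cyclin D1, read 12.43 and 12.63 in RPMI and 9.12 and 9.33 in EBSS (-3.03 ± 0.12, 8.17-fold lower), and Ccnd3 (-1.71) and Ccne1 (-1.52, with -0.63 for its other probe) were lower too. Pold1, the catalytic subunit of polymerase delta (-1.81, with -1.78 for its other probe), Tk1 (-1.49), Ccna2 (-1.83) and Birc5 (-1.43) were lower in the later phases. In the histone list 3 genes were higher, H2bc12 (2.09, with 1.90), H2bc4 (2.07) and H4c1 (1.58), and 2 lower, the variant H2ax (-1.40) and H2az1 (-1.03, or 0.47 with arrays centred on all spots). Histone genes of one class are near copies, so that their probes can share signal.

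Tubulins, the subunits of microtubules, were low as a list. Of 14 measured genes, 12 tubulins with Stmn1 and Ttc5, 8 were lower and none higher, at a median of -1.03. That median stayed below the median of all measured genes in all 6 other scalings, at 0.29 beside 0.81 with arrays centred on all spots. Tubb4b read 12.70 and 12.83 in RPMI and 11.03 and 10.82 in EBSS (-1.87 ± 0.12, 3.66-fold lower), with both paths at -1.87. Tubb6 (-1.31) and Tuba1a (-1.28) kept their sign when arrays were centred on all spots, at -0.03 and -0.18. Tubb2a (-1.37), Tuba1b (-1.28), Tuba1c (-1.27), Tubb5 (-1.05) and Tuba4a (-1.004) then lay at 0.005, 0.007, 0.25, 0.43 and 0.37. Other probes gave -0.60 and -0.27 for Tubb2a, -0.46 and -0.41 for Tuba4a and -1.04 for Tubb5. Tuba1c read 17.12 and 16.94 in RPMI and 16.51 and 15.50 in EBSS, so that its paths differed, at -1.61 and -0.57. The neuronal tubulins Tubb3 and Tubb2b lay at 0.01 and 0.04. Tubulin genes are near copies of one another and their probes may share signal.

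Tbcc, the cofactor that completes the folding of tubulin dimers, was not in that list and was among the 30 lowest genes. It read 13.69 and 13.76 in RPMI and 11.56 and 11.45 in EBSS (-2.21 ± 0.12, 4.61-fold lower). Ttc5, which targets tubulin RNA for decay when free tubulin is plentiful, lay at -0.41, and Stmn1, which holds free tubulin, at -0.51. In mm8 the Tubb4b probe spans 25044995 to 25045054 of chromosome 2, and the Tbcc probe 46354923 to 46354982 of chromosome 17.

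**Figure D4:**
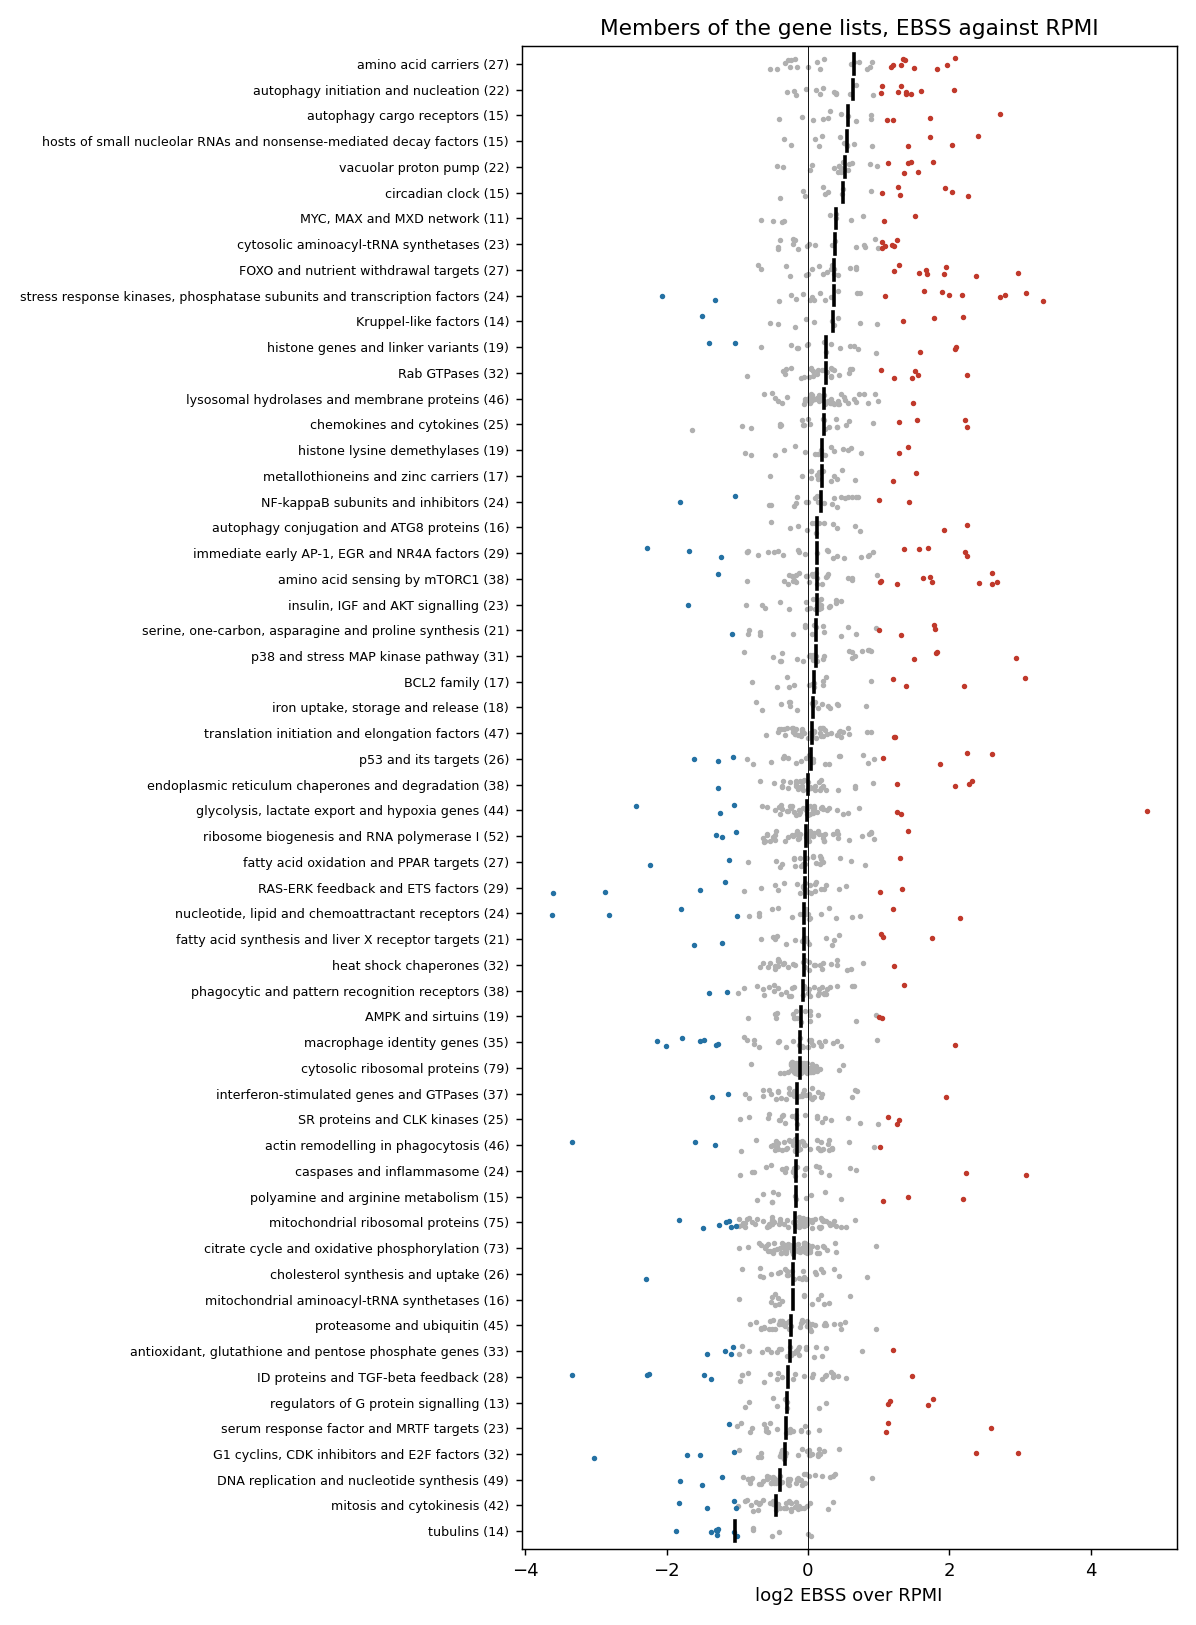
Log2 ratio of EBSS over RPMI of the measured members of the gene lists (number measured in brackets), ordered by median (black bar), with red and blue points for genes counted as higher and lower. With loess, the scaling drawn, amino acid carriers and autophagy initiation stand at the top with medians of 0.64 and tubulins at the bottom with -1.03, an order that differs under other scalings.

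Part of the machinery of protein and energy production held no counted genes. Of 79 cytosolic ribosomal protein genes, 73 genes of the citrate cycle and oxidative phosphorylation and 45 of the proteasome none was counted, at medians of -0.12, -0.20 and -0.25. These medians were above that of all measured genes (0.81) with arrays centred on all spots, at 1.38, 1.09 and 1.11, so that their side of the array median is not settled. Mitochondrial ribosomal proteins had 7 of 75 lower (9.33%, beside 2.82% of all measured genes) and none higher, led by Mrpl41 (-1.83) and Mrpl51 (-1.48). Their median of -0.19 was 0.94 with arrays centred on all spots, beside 0.81 for all measured genes. Centred on bright probes it was 0.11, beside -0.02, so that its side is not settled either. Among 15 hosts of small nucleolar RNAs and decay factors 4 were higher. Zfas1, a noncoding host of small nucleolar RNAs, read 12.90 and 12.57 in RPMI and 15.10 and 15.25 in EBSS (2.41 ± 0.15). Snhg5 lay at 2.03, Taf1d at 1.42, and Gas5 at 1.73 but at -0.15 by its other probe. The decay factor genes Upf1, Upf2 and Smg1 had ratios of 0.20, 0.16 and 0.45. Polyamine genes were higher in 3 of 15 cases, with the catabolic enzyme Sat1 (2.20, with 2.03) and the antizyme inhibitor Azin1 (1.41, with 0.23) on opposite sides of the pathway.

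In the list of macrophage identity genes 7 of 35 were lower and 1 higher, at a median of -0.11. Of 38 phagocytic and pattern recognition receptors 2 were lower (5.26%) and 1 higher (2.63%), near the 2.82% and 4.48% of all measured genes. None of the 12 markers was counted, but their median was -0.30, with 3 of 12 ratios above 0. With arrays centred on bright probes that median was 0.22, beside -0.02 for all measured genes. The interferon regulatory factors Irf5 (-2.14) and Irf8 (-2.01, with -1.15 for its other probe) led the lower identity genes. Irf8 read 13.53 and 13.55 in RPMI and 11.51 and 11.38 in EBSS. Il10ra (-1.52), Csf2rb (-1.47, with -0.10 and 0.01 for its other probes) and C1qa (-1.30) were also lower. Cx3cr1, the fractalkine receptor, had 10.36 and 10.48 in RPMI and was not well above background in EBSS. Zeb2 was higher at 2.08, with 0.35 and 1.56 for its other probes. Csf1r and Spi1, which define the lineage, lay at -0.76 and -0.70.

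Surface receptors were found on both sides. Beside P2ry6, Lpar6 (-2.81, with -1.60 for its other probe) and the oxysterol receptor Gpr183 (-1.79) were lower, while the ATP-gated channel P2rx7 (2.15, with 0.30 for its other probe) and Hcar2 (1.20) were higher. Tlr2, which senses bacterial lipoproteins, lay at -1.41, and Tlr4, which senses lipopolysaccharide, at 1.36. Arl4c, a GTPase of membrane and actin traffic, was 10.1-fold lower (-3.34 ± 0.18), but its other probe gave -0.80. Hcls1 (-1.60) and Marcks (-1.31), which act on actin, were lower among 46 genes of actin remodelling, in which Vav3 (1.02) was the 1 higher. Inpp5d, the lipid phosphatase SHIP, was lower at -1.70, the only counted gene among 23 of insulin and AKT signalling.

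Among 25 chemokine and cytokine genes 4 were higher and none lower. Gdf15 (2.25), Ccl3 (2.22), Csf1 (1.54) and Cxcl2 (1.29) are the 4. Casp4, the caspase that senses lipopolysaccharide inside cells, read 11.80 and 11.91 in RPMI and 14.84 and 14.98 in EBSS (3.08 ± 0.16, 8.47-fold). Its probe spans 5336645 to 5336704 of chromosome 9 in mm8. Il1rn, the interleukin 1 receptor antagonist, lay at 2.24 with 0.78 for its other probe. In the BCL2 family 4 of 17 were higher and none lower, and they stand on both sides of the death decision. Bbc3 (3.07 ± 0.16), for PUMA, and Pmaip1 (1.38), for NOXA, promote death, and Bcl2a1b (2.21) and Mcl1 (1.20, with 0.70) protect from it. Bbc3 read 12.04 and 11.80 in RPMI and 14.95 and 15.11 in EBSS. Bcl2a1b belongs to a cluster of near-identical copies.

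Lipid and sugar genes moved singly. Fasn (-1.61) had 0.03 by its other probe. Angptl4 (-2.23), a lipase inhibitor, was lower, and the cholesterol exporter Abcg1 (1.76) was higher. The monocarboxylate carrier Slc16a6 lay at -2.43, with -0.25 for its other probe, and hexokinase 2 (Hk2) at 1.32. In the endoplasmic reticulum list 4 of 38 were higher and 1 lower, with Herpud1 (2.31), Atf6 (2.28, with 1.81) and Dnajb9 (2.08, with 1.11 and 1.98), genes of the unfolded protein response, in the lead. Keap1, the repressor of the oxidant factor NRF2, was lower at -1.18. Of 33 antioxidant, glutathione and pentose phosphate genes 4 were lower (12.1%, beside 2.82% of all measured genes) and 1 higher. The median of that list was -0.26 with loess, and 0.89 beside 0.81 for all measured genes with arrays centred on all spots. Gch1, the first enzyme of biopterin synthesis (2.43, with 0.86), and Chka, choline kinase alpha (2.47, with 1.31), were also among the 30 highest.

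All genes were read in the inhibitor condition too, and values are given here for a few of the genes named above. Both ratios of a gene are taken over the same 3 arrays, so that they are not independent. Log2 ratios over RPMI were 4.79 in EBSS and 1.92 in EBSS with SB202190 for Ndrg1, 3.32 and 3.16 for Ddit3, 2.60 and 1.58 for Flcn, and 2.71 and 0.55 for Sqstm1. Klf4 gave 2.20 and -0.15, Dusp1 1.69 and -1.23, and Zfas1 2.41 and 3.02. On the low side P2ry6 gave -3.63 and -2.54, Dusp6 -3.61 and -3.16, Id1 -3.34 and -3.38, and Tubb4b -1.87 and -0.61. Among these genes Ddit3 and Id1 had near-equal values with and without the inhibitor, while Dusp1 had opposite signs and Klf4 lay near 0 with it.

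Promoters of 300 bases, from 250 before to 50 after the start, were at hand for 8616 measured genes, 411 of those counted as higher and 241 of those counted as lower. The C/EBP-ATF element TTGCNTCA lay in 6.69% of the 553 promoters of higher genes, 2.28% of the 307 of lower genes, 3.12% of the 10984 of measured genes and 3.69% of all 32851. CLEAR-like elements were in 3.62%, 0.977%, 2.003% and 0.974% in the same order. The E-box core CACGTG, which every CLEAR-like element holds, was in 12.3%, 8.14%, 10.3% and 7.15%. FOXO elements were in 1.99%, 0.977%, 0.847% and 1.23%, which is 11 promoters of higher genes. The cyclic AMP element TGACGTCA was in 4.70%, 2.28%, 3.22% and 1.79%. By contrast the ETS element CCGGAAGT was found in 4.70% of promoters of higher genes and 5.21% of those of lower genes, both under the 8.71% of measured genes. The AP-1 element TGANTCA was in 6.69%, 5.54%, 4.98% and 7.81%. The E2F element TTTCGCGC was in 0.904%, 0.977%, 0.665% and 0.323%, the serum response element in 1.63%, 0.651%, 1.28% and 1.63%, and the loose NF-kappaB element, GGG and CC with 5 free bases between, in 66.4%, 73.3%, 67.0% and 50.8%. All motifs were searched on both strands, genes can have several promoters, and no test was made of these shares.

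The calls on both sides depend on how the arrays are scaled. With arrays centred on the median of all spots in place of loess, the median of all measured genes moved from 0.00 to 0.81, and bright probes moved more than dim ones, as the plot of ratios against intensity shows. As that centring raised ratios in general, it favours the sign of higher genes and works against that of lower ones. It gave 4252 higher and 23 lower calls. All 532 higher genes kept their sign in the 6 other scalings. Of the 335 lower genes 259 kept it with that centring and all 335 in the other 5 scalings, and all 335 stayed below the median of measured genes in each. Counted genes were 532 higher and 335 lower (61.4% higher) with loess, 961 and 1093 (46.8% higher) with the scanner software's own log ratios, and 832 and 339 (71.0% higher) when arrays were centred on bright probes. With that last centring 516 of the higher and 194 of the lower genes were counted again. Without background correction they were 614 and 541 (53.2% higher).

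**Figure D5:**
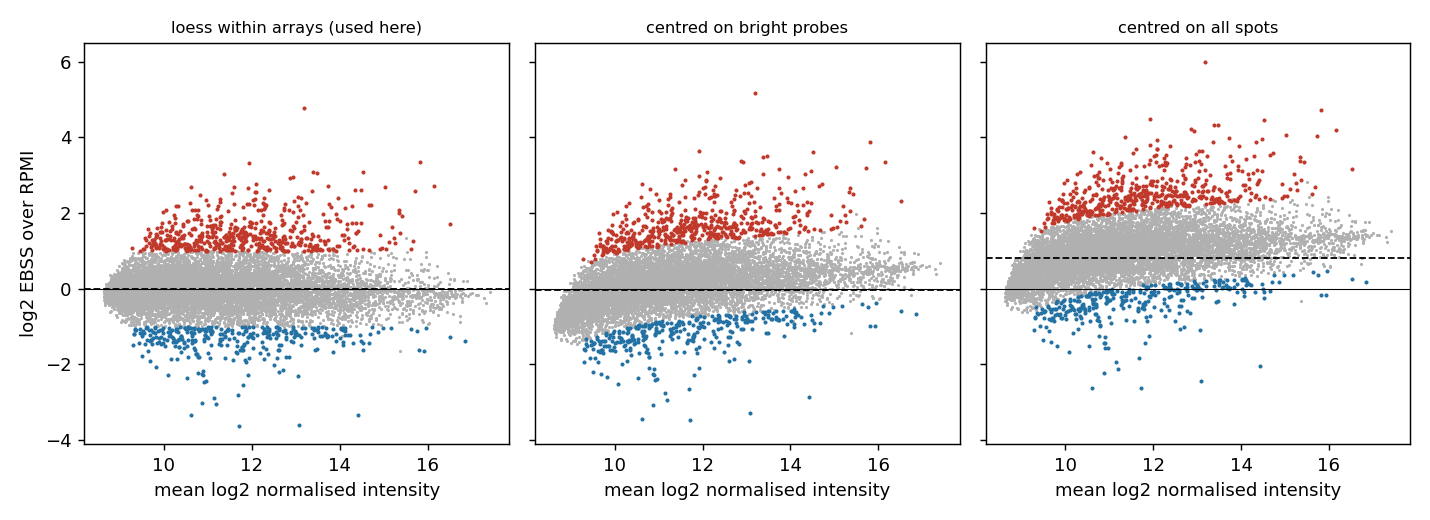
Log2 ratio of EBSS over RPMI against mean log2 normalised intensity for measured genes under 3 scalings, with the genes counted as higher (red) and lower (blue) under loess kept in colour. The dashed line is the median of measured genes, at 0.00 with loess, -0.02 when centred on bright probes and 0.81 when centred on all spots.

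Probes of one gene did not always give one sign. Further measured probes existed for 295 higher genes, 15 of which had one of opposite sign, and for 115 lower genes, 8 of which had one. A size of 1 was reached without both paths by 3 genes on the high and 2 on the low side, named here after their values were seen. Lrpap1 (1.46) had paths of -0.10 and 4.58, as its probe read 13.65 in the Cy5 and 8.15 in the Cy3 channel of RPMI. Cdc5l (-1.25) had paths of 0.18 and -4.10. Ccl2 (-1.65), a monocyte chemokine, had paths of -2.30 and -0.34, Cnbp (1.34) of 1.83 and 0.37 and Ica1l (1.08) of 1.42 and 0.39. Of the higher genes 2 (Gdf9 and Kansl1l) were not well above background in both RPMI channels, and 4 of the lower genes, among them Cx3cr1, Frmd4a and Zfp862-ps, not in both EBSS channels.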

How the data were processed

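RNA of J774A.1 cells in RPMI, EBSS and EBSS with SB202190 was hybridised on 3 two-colour Agilent 4x44K arrays. Scans were quantified in Agilent Feature Extraction 9.5.3.1 (per the submitters' processing notes). The deposited scanner files give mean spot and median background intensity per dye without normalization, and a log10 ratio of Cy5 over Cy3 from signals the software had background-subtracted and dye-normalized, per the file headers. The deposited files also mark, as other columns, spots above background, outliers and controls. The authors' deposited series table holds log2 ratios, of which 99.9% of those of measured probes on each array lay within 0.01 of the scanner ratio of the same probe, with medians of -0.0854, -0.0766 and -0.166. Scale and direction are therefore those of Cy5 over Cy3, without centring.

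Intensities were background-corrected with normexp (offset 50) and normalized by loess with limma 3.58.1 (R 4.3.3). Of 45018 spots per array the 1639 controls were dropped, as were 49 of 41174 probes with an outlier, and no spot was saturated. Channel levels are log2 intensities after loess and quantile normalization of mean intensities between arrays. The log2 ratio of EBSS over RPMI is the least-squares value over the loop, in which the dye effect of a probe cancels. Its technical SE comes from the robust SD of the sum around the loop in 30 bins of brightness. The estimate was tried on simulated log2 ratios with a dye effect and noise. That simulation held no background and no normalization step, so it cannot speak to how the counts depend on scaling. With 1 sample per condition no test was made. Later steps used Python 3.11.15, numpy 2.4.6, pandas 2.3.3 and matplotlib 3.10.9.

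Probes were named through an accession (24496), a symbol (6234) or a synonym (2386) in RefSeq's table of GRCm38.p6, and 8058 carry the array design's own name, possibly outdated. Probe positions are those of the files, on mm8. The members, the 60 gene lists and the motifs were chosen with earlier results of these data known. Genes named come from the 30 with a symbol at either end of the counted genes, counted list members, the 3 largest ratios of each list and the markers. List members named beside them with no count, and genes said to be picked later, were chosen after their values were seen. A few genes within these limits are not reported here. In total 13 alternatives were tried.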

Additional observations from a re-analysis of the deposited data

How the results depend on the processing

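No paired analysis was possible because each condition is 1 sample. Against 532 higher and 335 lower genes, the scanner software's log ratios gave 961 and 1093, with 532 and 326 of the counted genes among them. Centring on all spots gave 4252 and 23 (532 and 23 among them), and centring on bright probes gave 832 and 339, but with only 194 of the 335 lower genes among them and 516 of the higher. There were 541 lower genes with no background correction, and 190 and 75 at a size of at least 1.5. Other settings stayed within 1.5 times of both counts, such as 413 and 275 when the probes of a gene were reduced to their median, and 533 and 358 by the array with both conditions alone. Among the genes named, centring on all spots turned the sign of Gart (0.053), H2az1 (0.468), Tuba1b (0.007), Tuba1c (0.25), Tuba4a (0.372), Tubb2a (0.005) and Tubb5 (0.432), while the other settings turned no counted gene that is named. The cause was not tested. Signal over background limited the comparison to 11871 of 27566 genes.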
